A study of Sus scrofa with 6 samples.

Results

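ANKRD28 is a host gene whose exons were joined into many different circular RNAs (circRNAs) in the boar testis. All 24 rows of the deposited circRNA table that carry this host gene name were taken, out of 4350 rows in all, and all 24 were exonic circRNAs with 1284 back-splice reads between them. The gene was chosen by the number of its circRNAs in the table, a number that rests on reads in Young_D30 replicate 1, because every exonic circRNA listed has at least 1 read in that library. The count of 24 is therefore a description and was not tested. Isoforms of the gene seen only in the other 5 libraries were not analysed here.

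Circular RNAs arise by back-splicing, in which a splice donor at the end of a downstream exon is joined to a splice acceptor at the start of an upstream exon, and the exons in between are closed into a ring without free ends. A sequencing read across that junction is a back-splice read, and it identifies a circRNA by the pair of sites that were joined. ANKRD28 encodes an ankyrin repeat protein that serves as a regulatory subunit of protein phosphatase 6 (PP6), a serine/threonine phosphatase.

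Testis RNA was sequenced from Landrace boars, 1 library per boar and 1 testis per boar. The Young_D30 group consisted of 3 piglets at post natal day 30, and the Adult_D210 group of 3 sexually mature boars at day 210, none with a treatment or genetic change given in the labels. Ribosomal RNA had been depleted and linear RNA digested with RNase R in all 6 libraries, so host gene mRNA was not measured. The testis holds germ cells, Sertoli cells, Leydig cells and other cell types in proportions that change with age, and in such bulk tissue fewer cells of a type and less RNA per cell cannot be told apart.

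The table holds 12701 to 33091 back-splice reads per library, from 37364412 to 49179118 mapped reads. All 2552 exonic circRNAs of the table have a read in Young_D30 replicate 1, against 1004 to 1247 in each other library, so that this library stands apart and the ANKRD28 fits were also run without it. Those fits still use exonic rows that are in the table with a read in that library, so they do not undo this choice of rows. Among 28 listed germ cell genes 6 host a circRNA, with 65, 43 and 25 summed back-splice reads in the Young_D30 libraries and 177, 67 and 52 in the Adult_D210 libraries. Of the 11 circRNAs of these hosts that were tested, 3 were higher in Adult_D210 and 0 lower, where 3.43% of all circRNAs tested were called higher and 4.85% lower. Most of the summed Adult_D210 reads came from IQCG and SPATA5. IQCG had 7, 6 and 7 reads in Young_D30 and 67, 27 and 21 in Adult_D210, and SPATA5 29, 23 and 5 against 72, 33 and 30. The listed genes did not move together: MOV10L1, which encodes a helicase of the piRNA pathway, had 28, 13 and 9 reads in Young_D30 and 24, 1 and 1 in Adult_D210. KIT had 0, 0 and 4 against 0, 0 and 0. Among 20 listed somatic genes of the testis 6 host a circRNA, with 24, 7 and 6 reads against 12, 16 and 16, and 0 of the 2 tested were called. DDX4, DAZL, SYCP3, SOX9 and WT1 are among the listed genes that host no circRNA in the table, and the part of cell composition in the results below was not tested.

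The gene lies on the minus strand of chromosome 13, and the circRNAs span 126505 nt of it, from 3078983 to 3205487 on the build named Sscrofa10.2 in the labels. Because of the strand, the larger coordinate of a circRNA is its upstream end, where the acceptor lies, and the smaller coordinate is its downstream end, where the donor lies. All 24 were assigned to the same transcript model. They were listed with 1 to 15 exons (median 5.5) and cover 202 to 100348 nt of the genome (median 12616), introns included. The exon borders inside a circRNA could be rebuilt from the introns that the table lists beside other circRNAs for 10 of the 24, and these 10 have an exonic length of 202 to 686 nt (median 444). The back-splice read does not show which inner exons a ring kept, so these lengths hold for rings that kept every exon.

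**Figure D1:**
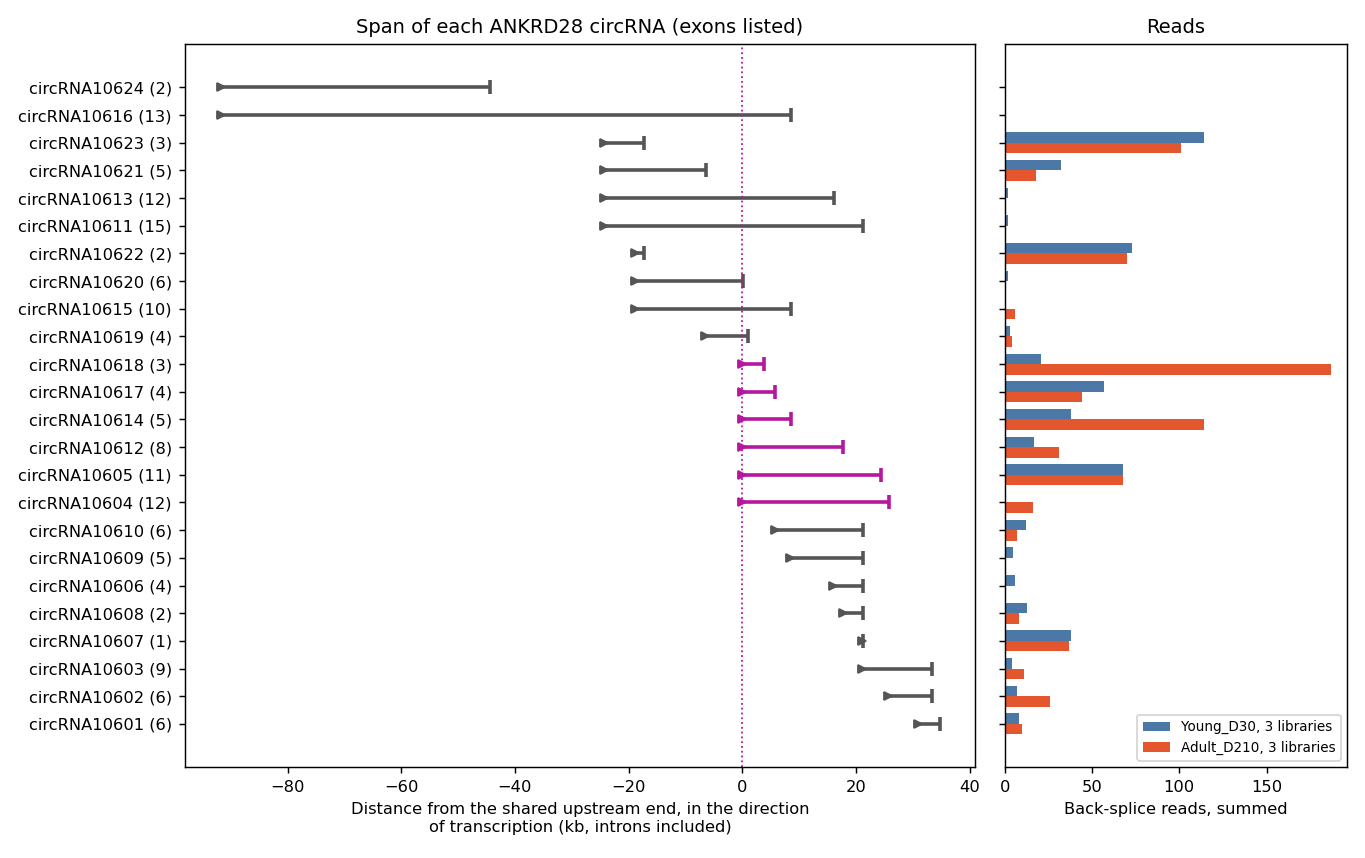
Each line in the left panel spans 1 of the 24 ANKRD28 circRNAs, from its acceptor (arrowhead) to its donor (bar), on an axis of distance in kb from the acceptor shared by 6 of them (dotted line), with the listed number of exons in parentheses. The right panel gives back-splice reads summed over 3 libraries per age: the 6 lines that begin at 0 carry 662 of the 1284 reads, and circRNA10618 has the longest Adult_D210 bar.

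The 24 circRNAs use 12 acceptors and 15 donors, a small part of the 108 pairs in which the acceptor lies upstream of the donor. Of the acceptors 7 are used by 1 circRNA each, and of the donors 11. The acceptor at position 3113691 is the most used: circRNA10604, circRNA10605, circRNA10612, circRNA10614, circRNA10617 and circRNA10618 all begin there, and together they hold 662 reads, or 51.6% of the gene's reads. They run from that acceptor to 6 different donors and therefore nest inside one another, from 3 exons in circRNA10618 to 12 in circRNA10604. The intron just upstream of this acceptor is 1197 nt long. Of the 1663 different upstream introns listed for the exonic circRNAs 12.6% are shorter (median 4733 nt), and among the 12 upstream introns of ANKRD28, which measure 623 to 20054 nt, it ranks as the fourth shortest.

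A second group lies upstream of the first. The acceptor at position 3137949 serves circRNA10611, circRNA10613, circRNA10621 and circRNA10623 and holds 269 reads (21.0%). The donor at position 3130975 ends circRNA10622 and circRNA10623 and holds 358 reads, 27.9% of the gene's reads, more than any other donor. Downstream of the shared acceptor, the donor at position 3092387 is used by 6 circRNAs that hold 128 reads, among them the single-exon circRNA10607. The far upstream acceptor at position 3205487 carries 2 reads, 1 for circRNA10616 and 1 for circRNA10624, both in Young_D30 replicate 1.

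Reads were divided over many isoforms. CircRNA10623 led over all libraries with 215 reads, 16.7% of the gene's reads, followed by circRNA10618 with 208, circRNA10614 with 152, circRNA10622 with 143 and circRNA10605 with 136. These 5 circRNAs hold 66.5% of the reads, and the 7 most abundant are needed to reach 80 percent. Among the 64 host genes with at least 10 exonic circRNAs in the table ANKRD28 has the lowest share for its leading circRNA, against a median of 38.8%. The next lowest was 18.2%, in a host gene with 16. The 64 have a median of 12 exonic circRNAs, and the shares were not adjusted for this number. On the same rows, ANKRD28 was also the lowest of the 64 without Young_D30 replicate 1, where circRNA10618 led with 19.7% (median 42.9%). By the mean of each library's own leading share it was again the lowest, at 23.8% (median 44.6%). The leading circRNA holds 27.1% of reads in ENSSSCG00000011340 (43 exonic circRNAs), 23.9% in PTPN13 (32), 44.2% in TIAM1 (27) and 49.2% in WDFY3 (27). Its most used acceptor, in contrast, lies near the middle of these host genes, with 51.6% of reads against a median of 50.3%. Its most used donor takes 27.9% against a median of 49.0%. These are descriptions over the 6 libraries summed, without a test.

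**Figure D2:**
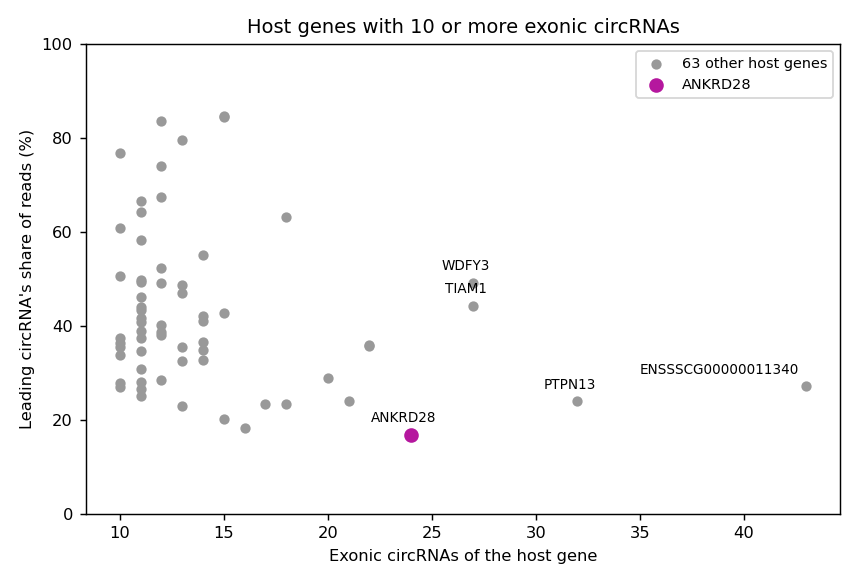
Each point is 1 of the 64 host genes with at least 10 exonic circRNAs, with the number of these circRNAs on the x axis and the share of the host gene's back-splice reads held by its leading circRNA (%, 6 libraries summed) on the y axis. ANKRD28, with 24 circRNAs, lies lowest, at 16.7%.

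Of the 24 circRNAs 15 had at least 10 reads over the 6 libraries and entered the test, with 1251 reads. The 9 below that limit hold 33 reads in all. The least abundant tested isoform was circRNA10603 with 15 reads, and the most abundant isoforms left out were circRNA10615 and circRNA10619 with 7 each. Only 8 isoforms were read in all 6 libraries, 7 had no Adult_D210 read and 5 were read in Young_D30 replicate 1 alone. Young_D30 replicates 1, 2 and 3 held 24, 9 and 13 isoforms and the Adult_D210 replicates 15, 13 and 13, where the 24 in the first library follows from how the table is filled.

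Summed over its isoforms, ANKRD28 gave 296, 117 and 113 back-splice reads in Young_D30 replicates 1, 2 and 3, and 386, 185 and 187 in the Adult_D210 replicates. Replicate 1 held the most reads in both groups, and the ranges overlapped. SRPBM, the level the authors obtained by scaling a count to the mapped reads of its library and to the read length, was 52.8, 17.9 and 17.3 in Young_D30 and 52.3, 30.5 and 25.5 in Adult_D210. The means of 29.3 ± 20.3 and 36.1 ± 14.3 (SD, n = 3 each) differed by less than the spread between boars (exact two-sided permutation test, p = 0.6). As a share of all back-splice reads in the table, however, the gene rose from 0.895%, 0.634% and 0.607% to 1.64%, 1.29% and 1.47%, without overlap. The permutation p for this share was 0.1, the smallest that 3 against 3 libraries allow.

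Whether the gene's circRNAs as a whole differ between the ages thus depends on the scale. In the edgeR quasi-likelihood fit over 560 host genes, with TMM scaling on the totals of the table, the summed level was higher in Adult_D210 by a log2 fold change of 1.14 (SE 0.26, adjusted p = 0.00155). For a call the adjusted p had to be below 0.05 and the log2 fold change 1 or more in either direction, and 6.43% of the tested host genes were called higher. With mapped reads as library size, the log2 fold change was 0.32 (SE 0.49) and the edgeR adjusted p 0.691, so the call was lost (background 1.43%). The median host gene stood at -0.31 on the first scale and at -1.05 on the second, and ANKRD28 lay above it on both. Without Young_D30 replicate 1 the log2 fold change on the first scale was 1.38 (edgeR adjusted p = 6.27e-05).

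Of the 15 tested isoforms, 2 were higher in Adult_D210 and 0 lower, where 3.43% of all 1341 circRNAs tested were called higher and 4.85% lower. With mapped reads as library size 1 of the 15 was called higher, against a background of 0.671%, and 0 lower, against 5.07%. The log2 fold changes of the 15 had a median of 0.30, with 11 above 0, on the TMM scale, where the median of all circRNAs tested was -0.42 and 39.8% were above 0. On the mapped-read scale the medians were -0.15 and -0.90, with 7 of the 15 and 28.2% of all above 0. Both isoforms called begin at the shared acceptor.

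CircRNA10618 rose most among the isoforms that were called. It is the shortest ring from the shared acceptor (chr13:3109788-3113691), with 3 exons of 115, 83 and 64 nt in transcript order and an exonic length of 262 nt. Its reads numbered 13, 0 and 8 in the Young_D30 libraries and 116, 43 and 28 in the Adult_D210 libraries, so the lowest adult library had more than the highest young library. In SRPBM it went from 1.18 ± 1.16 to 8.88 ± 6.15 (SD, n = 3 each), a ratio of means of 7.51. The edgeR log2 fold change was 3.39 (SE 0.61, adjusted p = 0.00275) on the TMM scale and 2.94 (SE 0.79, adjusted p = 0.0402) with mapped reads, called on both. Without Young_D30 replicate 1, the library that fills the table, it was 4.03 (edgeR adjusted p = 0.0184). The Adult_D210 libraries differed widely among themselves, with replicate 1 at 15.7 SRPBM against 7.09 and 3.82 in the other two.

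CircRNA10614 (chr13:3105140-3113691) extends the same ring by 2 further exons to 5 exons and 472 nt. It had 17, 13 and 8 reads in Young_D30 and 45, 30 and 39 in Adult_D210, again without overlap. Its SRPBM was 2.08 ± 0.906 against 5.46 ± 0.589 (SD, n = 3 each), with adult libraries closer together than those of circRNA10618. The edgeR log2 fold change was 1.93 (SE 0.43, adjusted p = 0.0107) on the TMM scale, but with mapped reads it was 1.40 (SE 0.55) and the edgeR adjusted p of 0.134 missed the limit. The call was also lost without Young_D30 replicate 3, at an edgeR log2 fold change of 1.78 and an adjusted p of 0.0535, whereas without Young_D30 replicate 1 it was kept (2.07, adjusted p = 0.0272).

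CircRNA10617 (chr13:3107945-3113691) lies between these isoforms, with 4 exons and 331 nt, and did not follow them. Its reads were 32, 13 and 12 in Young_D30 and 22, 12 and 10 in Adult_D210, which overlap. The edgeR log2 fold change was -0.03 (SE 0.50, adjusted p = 0.981). With the acceptor in common, these 3 rings differ only in the donor and in 1 or 2 exons, and among the reads of circRNA10618 and circRNA10617 together the former took 28.9%, 0% and 40% in Young_D30 and 84.1%, 78.2% and 73.7% in Adult_D210. No test was run on this pair, which was picked after its values were seen.

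The longer rings from the shared acceptor were not called. CircRNA10605 (chr13:3089207-3113691, 11 exons) had 15, 33 and 20 reads in Young_D30 and 34, 18 and 16 in Adult_D210, and both groups held 68 in all. CircRNA10612, with 8 exons and 686 nt, had 8, 2 and 7 reads against 0, 10 and 21, a spread within the adult group as wide as the whole range. CircRNA10604, the 12-exon ring, had a log2 fold change of 3.78 (SE 1.60), but 14 of its 17 reads came from Adult_D210 replicate 1 and the edgeR adjusted p was 0.155.

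The isoforms of the upstream group were abundant at both ages. CircRNA10623 (chr13:3130975-3137949, 3 exons) had 68, 31 and 15 reads in Young_D30 and 42, 30 and 29 in Adult_D210, and circRNA10622 (chr13:3130975-3132568, 2 exons) had 43, 14 and 16 against 42, 12 and 16. Their log2 fold changes on the TMM scale were 0.23 (SE 0.42) and 0.25 (SE 0.48), and with mapped reads -0.37 and -0.27, none past the limit. CircRNA10621, which shares its acceptor with circRNA10623 and runs over 5 exons, had 21, 1 and 10 reads against 5, 11 and 2.

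The downstream isoforms were sparser. CircRNA10607 (chr13:3092387-3092588) consists of a single exon of 202 nt and had 24, 3 and 11 reads in Young_D30 and 20, 8 and 9 in Adult_D210. CircRNA10602 had 7, 0 and 0 reads against 17, 6 and 3 and a log2 fold change of 2.14 (SE 1.06), with an edgeR adjusted p of 0.214. Without Young_D30 replicate 1, which holds all its young reads, the fitted value was 6.16 (edgeR adjusted p = 0.0700) and is no measure of size, since the remaining young libraries are at 0. CircRNA10601 was read in replicate 1 of each group and nowhere else, with 8 and 10 reads, and circRNA10603 likewise with 4 and 11. CircRNA10608 and circRNA10610, with 21 and 19 reads, had log2 fold changes of -0.26 (SE 1.34) and -0.41 (SE 1.06). Over the 13 tested isoforms that were not called, the edgeR adjusted p ranged from 0.155 to 0.981. For isoforms with a standard error above 1 on the log2 scale, a log2 fold change of 1 was not detectable at this depth.

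**Figure D3:**
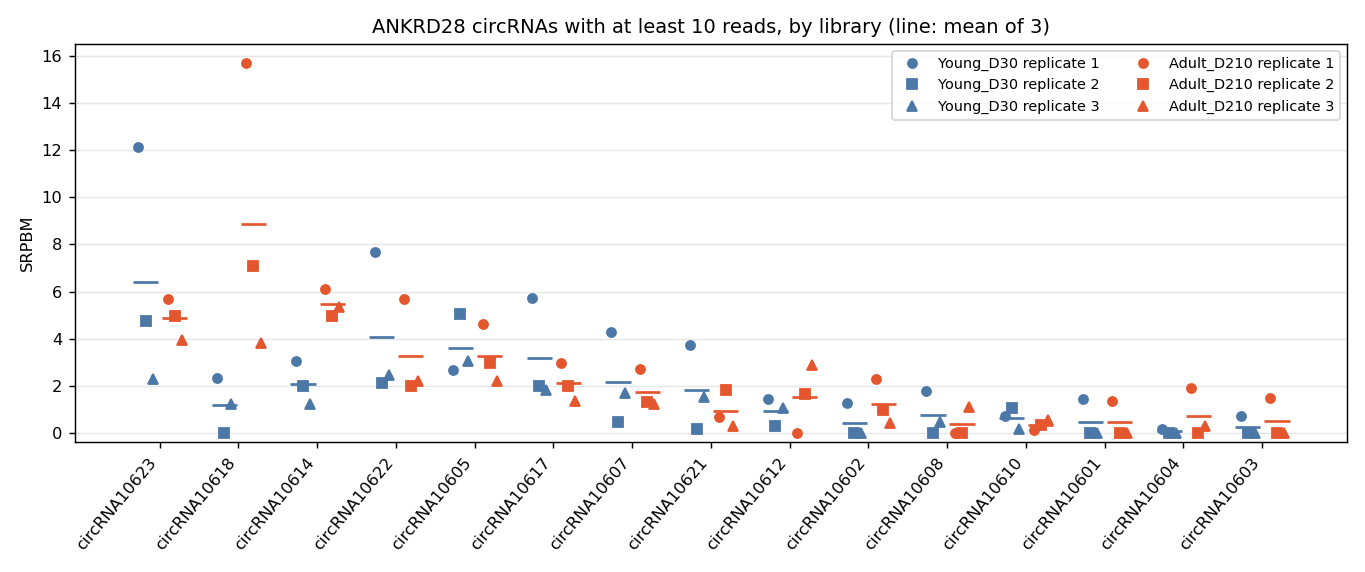
SRPBM (y axis) of the 15 ANKRD28 circRNAs with at least 10 reads, ordered by total reads, with 1 symbol per library and a line at each group's mean of 3. In circRNA10618 and circRNA10614 all 3 Adult_D210 symbols lie above all 3 Young_D30 symbols, and in the other 13 the groups overlap.

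Without overlap in SRPBM, 2 of the 15 isoforms were higher in Adult_D210 (background 3.73%) and 0 were lower (background 23.5%).

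**Figure D4:**
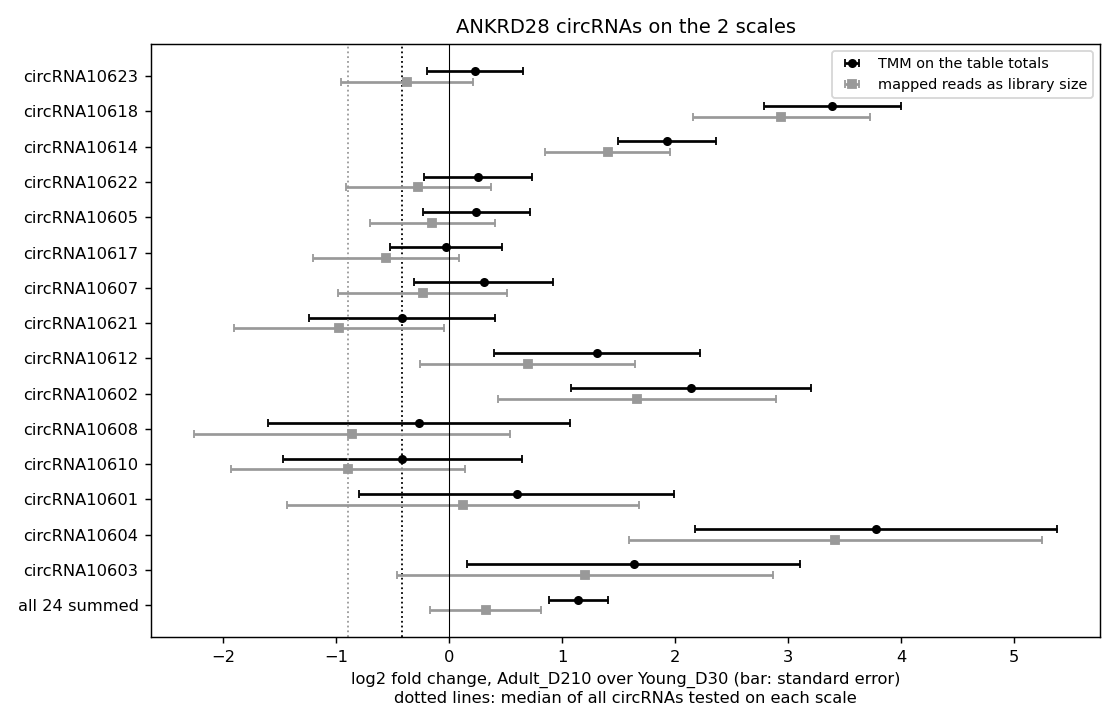
Log2 fold change of Adult_D210 over Young_D30 (x axis) with its standard error for the 15 tested ANKRD28 circRNAs and for all 24 summed, in black with TMM on the totals of the table and in grey with mapped reads as library size. Dotted lines mark the median of all 1341 circRNAs tested, at -0.42 and -0.90; circRNA10618 stands at 3.39 and 2.94 and the sum at 1.14 and 0.32.

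The share of the gene's reads taken by each isoform is free of the library scale. The order of the isoforms by share varied between libraries, within each age as well as between the ages. CircRNA10618 took 4.39%, 0% and 7.08% of the gene's reads in Young_D30 and 30.1%, 23.2% and 15.0% in Adult_D210, a rise from 3.82% ± 3.57 to 22.8% ± 7.55 (SD, n = 3 each). Exact Clopper-Pearson 95% intervals were 2.36% to 7.39% for the 13 reads of Young_D30 replicate 1 and 25.5% to 34.9% for the 116 of Adult_D210 replicate 1. In Young_D30 replicate 2 it had 0 of 117 reads, for which the upper bound of the same exact interval is 3.10% (2.56% as the share that 3 reads would make). Such intervals and limits cover counting error only and leave out the spread between boars. PCR copies were not told apart, so the counting error itself may be larger.

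CircRNA10614 took 7.98% ± 2.79 of the reads in Young_D30 and 16.2% ± 4.60 in Adult_D210. In the other direction, circRNA10617 went from 10.8%, 11.1% and 10.6% to 5.70%, 6.49% and 5.35%, and circRNA10622 from 14.5%, 12.0% and 14.2% to 10.9%, 6.49% and 8.56%. In these 4 isoforms the groups did not overlap, 2 higher and 2 lower in Adult_D210, and each has a permutation p of 0.1, the smallest possible. A rise in some shares of a gene lowers its other shares. In level circRNA10617 and circRNA10622 were not called (edgeR log2 fold change -0.03 and 0.25). In the usage test described below their edgeR adjusted p was 0.807 and 0.923. Among the 1030 tested circRNAs whose host gene has at least 2 tested circRNAs, 9.81% had a share higher in all 3 adult libraries and 9.81% a share lower in all 3.

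The isoform with the most reads over all libraries, circRNA10623, took 23.0%, 26.5% and 13.3% in Young_D30 and 10.9%, 16.2% and 15.5% in Adult_D210. The means of 20.9% ± 6.85 and 14.2% ± 2.90 (SD, n = 3 each) differed by -6.71 percentage points, within the spread between boars (exact two-sided permutation test, p = 0.3). CircRNA10605 varied most among the young libraries, with 5.07%, 28.2% and 17.7%, against 8.81%, 9.73% and 8.56% in the adult ones.

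The leading isoform was therefore not the same in every boar. CircRNA10623 led in Young_D30 replicate 1, circRNA10605 in Young_D30 replicates 2 and 3, circRNA10618 in Adult_D210 replicates 1 and 2, and circRNA10614 in Adult_D210 replicate 3. CircRNA10618 ranked eighth in Young_D30 replicate 1 and had no read in replicate 2. The top 3 isoforms of a library held 45.1% to 66.7% of its ANKRD28 reads.

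**Figure D5:**
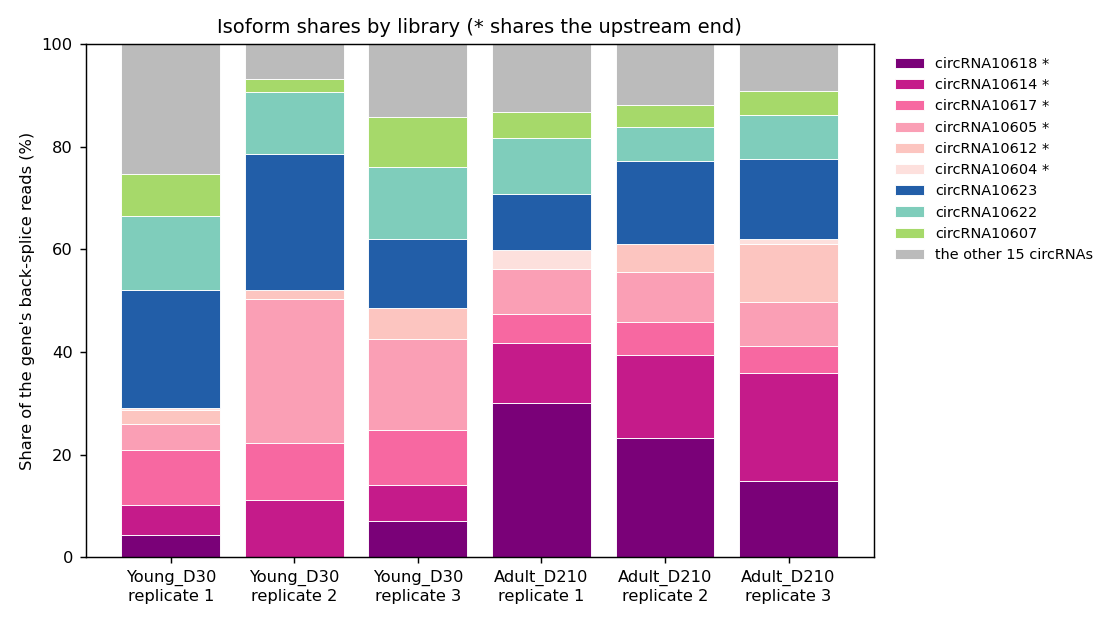
Stacked bars give the share of ANKRD28 back-splice reads (%) taken by each circRNA in each of the 6 libraries, with an asterisk for the 6 circRNAs that begin at the shared acceptor. The darkest segment, circRNA10618, measures 0% to 7.08% in Young_D30 and 15.0% to 30.1% in Adult_D210.

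A direct test of isoform usage asked whether the change of an isoform differs from that of the other isoforms of its gene. In edgeR's diffSpliceDGE, circRNA10618 rose by 2.47 on the log2 scale relative to the others, with an unadjusted p of 0.000406 and an adjusted p of 0.0971 over 1105 circRNAs, and so was not called. Among the isoforms 0 were called in this test, against a background of 0.181%, and 1 of the 15 had an unadjusted p under 0.05, as did 81 of the 1105. CircRNA10618 was called without a filter (edgeR adjusted p = 0.0169) and with filterByExpr (0.00212), but not with at least 20 reads (0.0563). The edgeR adjusted p was 0.267 with mapped reads as library size and 0.128 with the replicate block. With each library left out once it ranged from 0.122 to 0.413. Taken over the whole gene, the edgeR usage test had an adjusted p of 0.151 over isoforms, where 5 of 265 host genes were called. It was 0.0468 over donors and 0.444 over acceptors, so that only the test over donors passed the limit of 0.05, and narrowly. The share of host genes called over donors was not computed, and the test was not repeated in other settings. Of the 11 donors tested 1 had an unadjusted p under 0.05, the donor at 3109788, which only circRNA10618 uses.

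The shared acceptor at 3113691 took 29.1%, 52.1% and 48.7% of the gene's reads in Young_D30 and 59.8%, 61.1% and 62.0% in Adult_D210. All adult libraries lay above all young ones, and Young_D30 replicate 1 lay far below the other libraries of its group. No background over all acceptors was computed for this lack of overlap. In level, the reads of the shared acceptor were 86, 61 and 55 against 231, 113 and 116. The edgeR log2 fold change was 1.63 (SE 0.28, adjusted p = 0.00129), and 1.61 without Young_D30 replicate 1 (edgeR adjusted p = 0.0051). These reads include those of circRNA10618 and circRNA10614, the 2 isoforms called above, and no other isoform from this acceptor was called. The call of the shared acceptor is therefore not separate from theirs. It was the only one of the 8 tested acceptors called higher (background 4.25%), and 0 were called lower (background 5.85%). With mapped reads as library size the log2 fold change was 1.002 (SE 0.46, edgeR adjusted p = 0.174), and 0 acceptors of the gene were called (background 0.66%). The acceptor at 3137949 took 27.0% ± 4.66 and 17.0% ± 5.00 of the reads, with overlap. In the usage test 0 of the 8 acceptors tested were called (background 0.129%), 1 had an unadjusted p under 0.05, and the shared acceptor had an edgeR adjusted p of 0.827.

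Among the donors, 2 of 11 tested were called higher, where the background was 4.07%, and 0 lower, where it was 5.78%. The calls are those of the donors at 3109788 and 3105140. The first holds only reads of circRNA10618, and 152 of the 160 reads of the second are of circRNA10614. These calls are therefore not separate from the calls of the 2 isoforms. The donor at 3109788, used by circRNA10618 alone, had an edgeR log2 fold change of 3.55 (SE 0.60, adjusted p = 0.00145), and 2.95 with mapped reads (SE 0.78, adjusted p = 0.0278). The donor at 3105140, used by circRNA10614, circRNA10615 and circRNA10616, had 2.06 (SE 0.43, edgeR adjusted p = 0.00489), and 1.40 with mapped reads (adjusted p = 0.137), where the background of donors called higher was 0.663%. The donor at 3130975 took 34.5% ± 6.11 of the gene's reads in Young_D30 and 22.8% ± 1.16 in Adult_D210 (SD, n = 3 each), without overlap (permutation p = 0.1). It was not called in the usage test (edgeR adjusted p = 0.792). Nor was it called in level, with an edgeR log2 fold change of 0.40 (adjusted p = 0.483), and -0.34 with mapped reads (adjusted p = 0.709). Shares also did not overlap for the donors at 3109788 and 3105140, higher in Adult_D210, and at 3107945, lower (permutation p = 0.1 each). How often donor shares do not overlap over all host genes was not computed, so these have no background. In the usage test the donor at 3109788 was called with an edgeR adjusted p of 0.0496 (background 0.39%), close to the limit, and the call was lost in 9 of 10 alternatives.

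Within the reads of the shared acceptor, circRNA10618 took 15.1%, 0% and 14.5% in Young_D30 and 50.2%, 38.1% and 24.1% in Adult_D210. CircRNA10605 took 17.4%, 54.1% and 36.4% against 14.7%, 15.9% and 13.8%, and circRNA10617 37.2%, 21.3% and 21.8% against 9.52%, 10.6% and 8.62%. The groups did not overlap for these isoforms, 1 higher and 2 lower in Adult_D210 out of the 6, each with a permutation p of 0.1. The background over 497 tested circRNAs of acceptors with at least 2 tested was 9.26% higher and 8.85% lower. Here too a rise in 1 share lowers the others. In level circRNA10605 and circRNA10617 were not called (edgeR log2 fold change 0.24 and -0.03). CircRNA10614 took 18.5% ± 3.55 and 26.6% ± 7.07 (permutation p = 0.3, exact), and it overlapped, as did circRNA10604 and circRNA10612. Each of the 3 exons of circRNA10618 lies inside 10 to 12 of the 24 rings, and rings over them held 44.0% to 44.5% of the reads in Young_D30 (mean of 3) and 61.6% to 62.1% in Adult_D210.

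The other subunits of PP6 gave few circRNAs. Of PPP6C, the catalytic subunit, and PPP6R1, PPP6R2, PPP6R3, ANKRD44 and ANKRD52, the other regulatory subunits, 4 host circRNAs in the table, 8 in all and each of them intronic. Of these 2 had enough reads for the test and 0 were called, a number too small to read against the backgrounds of 3.43% higher and 4.85% lower. PPP6R1, the only one of these host genes tested, had 18, 15 and 19 reads in Young_D30 and 21, 3 and 7 in Adult_D210 (edgeR log2 fold change -0.21, SE 0.60, adjusted p = 0.845). Among 20 listed genes of other ankyrin repeat proteins, ANKRD44 and ANKRD52 included, 7 host circRNAs, 23 in all, of which 6 were tested and 0 called, with the same backgrounds and limit. The list joins fixed names to every other host gene of the table named ANKRD or ASB with a number. Those are listed because they host a circRNA, so the 7 of 20 is partly fixed in advance. In the host gene fit ANKRD17 had a log2 fold change of 0.15 (SE 0.41, edgeR adjusted p = 0.838). ANK2, which encodes an ankyrin that links membrane proteins to the cytoskeleton, had 41, 4 and 15 reads against 1, 1 and 0 and was called lower (edgeR log2 fold change -4.07, SE 1.11, adjusted p = 0.008), where the background of host genes called lower was 11.1%. Of its young reads 41 came from Young_D30 replicate 1, and the call was lost without that library, without Adult_D210 replicate 1 and without Adult_D210 replicate 2.

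Over the 6 libraries, the host genes whose log2 level on the TMM scale ran most like that of ANKRD28 were ENSSSCG00000009021 (Pearson r 0.984), SLC38A10 (0.977), GALC (0.960), DHX36 (0.957) and ENSSSCG00000002533 (0.956), out of 224 host genes with at least 100 reads. The points share their libraries, so these coefficients are descriptions.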

How the data were processed

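One rRNA-depleted, RNase R-treated testis library per boar was sequenced (3 Young_D30, 3 Adult_D210; groups from sample titles). After trimming (Cutadapt) and mapping (TopHat2) to the pig genome, Sscrofa10.2 per the labels, the authors called circRNAs with TopHat-Fusion and CIRCExplorer2. The deposited values are the unnormalized count of back-splice reads of each circRNA in each library and SRPBM, a deposited signal that scales the count by mapped reads and by the read length of 150 nt. Mapped reads were recovered from count over SRPBM. 

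The table holds part of each library, and its exonic rows are conditioned on a read in Young_D30 replicate 1. Counts were analysed with edgeR 4.0.16 in R 4.3.3: circRNAs with at least 10 reads, TMM, robust quasi-likelihood F test, Benjamini-Hochberg adjustment over all 1341 circRNAs tested. The fit was repeated on sums per host gene, per donor (back-splice start) and per acceptor (back-splice end), and usage within a gene was tested with diffSpliceDGE. The code was tested on simulated data. Calls needed an adjusted p below 0.05 and a log2 fold change of 1 or more in either direction (usage tests: adjusted p alone). Single values were compared by exact two-sided permutation. Within groups, libraries varied beyond counting noise (chi-square over degrees of freedom 3.87 to 4.97). Structures were derived in Python 3.11.15 with NumPy 2.4.6. All isoforms that passed the filter are named. Other host genes are named from the PP6, ankyrin and cell type lists, as the 5 most like ANKRD28 in level (log2 CPM, prior count of 2), or for holding at least 24 exonic circRNAs. Members and lists were chosen with earlier results of these data known. Alternatives were mapped reads as library size, no TMM, other filters, a replicate block, DESeq2 1.42.0, edgeR's exact test and each library left out. The older quasi-likelihood form, mapped reads for the site fits, and the other rankings of leading shares, were added after seeing the data.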

Additional observations from a re-analysis of the deposited data

How the results depend on the processing

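With mapped reads as library size, 1 isoform was called in place of 2 and 1 site in place of 3, usage was called for 0 sites in place of 1, the summed log2 fold change was 0.32 (edgeR adjusted p = 0.691), and circRNA10605, circRNA10607, circRNA10622 and circRNA10623 changed sign, to -0.15, -0.23, -0.27 and -0.37, none past the limit. CircRNA10618 was called in all 15 alternatives (log2 fold change 2.91 to 4.03). CircRNA10614 was lost in 3 of 15: mapped reads, replicate block (edgeR adjusted p = 0.0781) and without Young_D30 replicate 3. Same-numbered libraries of the groups had correlated deviations of 0.05, -0.01 and -0.03, and the other young and adult pairs -0.050 to 0.064. Values this small cannot decide whether the numbers pair the boars, and the labels do not state it. The replicate block gave 1 isoform called and 0 sites with changed usage, and over all circRNAs it gave 14 higher and 19 lower in place of 46 and 65. Isoform usage was called for 1 isoform, circRNA10618, without a filter and with filterByExpr, and for 0 otherwise. Site usage was 0 in the older quasi-likelihood form. With filterByExpr 0 ankyrin repeat host genes were called in place of 1. CircRNA10617, at -0.03, changed sign to 0.13 without TMM, 0.0024 without a filter, 0.072 with at least 20 reads, 0.0040 with filterByExpr and 0.061 in DESeq2, and circRNA10608 to 0.16 in DESeq2 and 0.020 in the exact test. With each library left out once, there were 1 to 2 isoforms called, 3 to 4 sites called, 0 sites with changed usage, 0 to 1 ankyrin repeat host genes (0 without Young_D30 replicate 1, Adult_D210 replicate 1 or Adult_D210 replicate 2), 15 to 38 circRNAs called higher and 22 to 49 lower, and a difference in the leading isoform's share of -10.5 to -3.92 percentage points. Log2 fold changes then ranged from 1.59 to 6.16 for circRNA10602, -0.048 to 0.76 for circRNA10605, -0.061 to 0.98 for circRNA10607, -5.04 to 1.04 for circRNA10608, -1.14 to 0.37 for circRNA10610, -0.17 to 0.41 for circRNA10617, -1.25 to 0.35 for circRNA10621, -0.084 to 0.77 for circRNA10622 and -0.077 to 0.76 for circRNA10623. The causes were not tested. Depth limits the sparse isoforms most: 9 of 24 had under 10 reads, and 113 to 386 ANKRD28 reads per library leave shares with wide intervals.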

Other observations

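The exons just downstream of the shared acceptor are held in more reads than those farther on. Rings over its first 3 exons hold 53.2%, 53.0% and 52.5% of the ANKRD28 back-splice reads, those over the fourth exon 37.8%, over the fifth 30.3% and over the sixth 18.3%. In Adult_D210 the step between the third exon (61.6% ± 0.447, SD, n = 3) and the fourth (40.0% ± 8.94) was wide, and in Young_D30 these exons lay at 44.0% ± 11.3 and 42.9% ± 15.0. This step restates isoform shares and is no separate result. Only circRNA10618 covers the third exon without the fourth, and only circRNA10610 the fourth without the third. The effective number of isoforms, which is 1 divided by the sum of squared shares, was 9.15, 5.17 and 8.90 in the Young_D30 libraries and 6.83, 7.45 and 7.99 in the Adult_D210 libraries, with overlap. These are values without a test.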
